A study of Arabidopsis thaliana with 66 samples.

Results

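The genes described here encode cation/proton exchangers (CHX) and glutamate receptor-like channels (GLR) of Arabidopsis thaliana. They were taken by a rule on names, which was chosen with earlier results of these data known. A probe set of the ATH1 expression array was included where the array annotation pairs it with 1 gene, and where that gene's symbol is CHX, NHX, KEA, CNGC, GLR, ACA or KUP followed by a number. The rule found 15 of the 22810 probe sets, 7 for CHX genes and 8 for GLR genes, each for a different gene. It found 0 for NHX, KEA, CNGC, ACA and KUP. The annotation pairs 13513 probe sets with 1 gene, and probe sets it does not list have no name here, so the other 5 families were not analysed here. The CHX genes were CHX6B (AT1G08135), CHX15 (AT2G13620), CHX16 (AT1G64170), CHX19 (AT3G17630), CHX20 (AT3G53720), CHX21 (AT2G31910) and CHX28 (AT3G52080). The GLR genes were GLR1.2 (AT5G48400), GLR1.4 (AT3G07520), GLR2.7 (AT2G29120), GLR2.8 (AT2G29110), GLR2.9 (AT2G29100), GLR3.3 (AT1G42540), GLR3.5 (AT2G32390) and GLR3.6 (AT3G51480). GLR2.7, GLR2.8 and GLR2.9 lie next to each other, with 0 other protein-coding genes between neighbours in the TAIR10.1 gene order.

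CHX proteins are membrane carriers that exchange monovalent cations such as potassium for protons, and in plants they act at the plasma membrane and at endosomal membranes. They take part in adjusting the potassium content and the pH of cells and compartments. GLR proteins are plant relatives of the ionotropic glutamate receptors of animal synapses. They form cation channels, permeable to calcium in the cases tested, that open with amino acids, and they are known from wound signalling, immune responses and pollen tube growth. A pollen grain takes up ions and water when it hydrates, and its tube grows at the tip with steep gradients of calcium and protons.

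Gene expression was measured on 66 arrays, 3 for each of 22 groups, from total RNA of plants grown on soil. In the Col-0 wild type, in continuous light at 23 °C, whole flowers were taken at stages 9, 10/11, 12 and 15. The 4 floral organs (sepals, petals, stamens, carpels) were dissected at stage 12 and again at stage 15. Pedicels of stage 15 and mature pollen completed the set. Whole Col-0 flowers from long days at 20 °C formed a further group. The 7 mutants were grown in continuous light at 23 °C and sampled at the equivalent of stage 12. In clv3-7 the flowers have extra organs and a gynoecium of many carpels. In lfy-12 they are turned into leaf-like structures. Flowers of ap1-15 have no sepals and carry secondary flowers in place of petals, and flowers of ap2-6 have no sepals or petals but carpel-like tissue in the sepal position. Flowers of ap3-6 have neither petals nor stamens. In ag-12, sepals and petals take the place of stamens and carpels without end. In ufo-1 the petal and stamen whorls hold filaments. The labels name each mutant only by its allele and do not say whether the arrays of a group came from separate plants, so p-values measure the spread between arrays, which may be technical.

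Values are MAS5 signals, scaled on each array to a trimmed mean of 100 (100.01 to 100.02 on the 66 arrays). The floor used below, 22.6, is the 40th percentile of all deposited values, and a group with all 3 arrays at or under it is called below the floor. Pollen arrays had 11798 to 12162 probe sets above it, and the other arrays 12458 to 14670. Of the 15 genes, 11 were above the floor on all arrays of at least 1 group and entered the test, 5 CHX and 6 GLR. The other 4, CHX16, CHX21, GLR2.8 and GLR2.9, did not. A gene counted as called when the adjusted p was under 0.05 and the change at least 2-fold in limma fitted to 17646 probe sets, on log2(signal + 11.3). Signals of different probe sets are not compared with each other, since each probe set responds with its own efficiency. The 9 pollen marker probe sets summed to 36190 to 41020 in pollen, against 6323 to 6641 in stage 12 stamens and 6267 to 6576 in stage 15 stamens. Outside pollen and stamens the sum stayed between 112 and 1423. Both probe sets of SETH5 went against this list: one had its lowest mean of all 22 groups in pollen (24.1), and the other (28.2 in pollen) was no higher there than in carpels of either stage (28.7 and 29.3). The green-tissue pair RCA and PORB summed to 59.2 to 73.5 in pollen and to at least 507 elsewhere.

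In pollen, 4 of the 5 CHX genes tested were called higher than in each of the 7 organ groups other than stamens (sepals, petals and carpels at both stages, and stage 15 pedicels). They were CHX15, CHX6B, CHX28 and CHX19. Of the 6 GLR genes, 0 were. Across all probe sets tested, 13.2% met the same criterion. These levels separate pollen genes from the rest and are given as a description, with no test. CHX15 had pollen signals of 1165, 806 and 852, while the 7 organ groups were all below the floor, so pollen was at least 41.6-fold higher. CHX6B had 628, 728 and 756 in pollen, at least 31.1-fold above the 6 groups that were below the floor. In stage 12 petals 1 of 3 arrays of CHX6B reached 27.1, and pollen was 40.7-fold above their mean.

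CHX28 had pollen signals of 225, 195 and 194, at least 9.06-fold above the 7 organ groups, which were all below the floor. CHX19 had 510, 290 and 296 in pollen. Relative to its mean, it was the most variable of these genes between pollen arrays (366 ± 125, SD, n = 3). Stage 12 sepals and petals held CHX19 at 19.1 ± 5.56 and 23.1 ± 4.40 (SD, n = 3), with 1 and 2 of 3 arrays above the floor, and the other 5 organ groups were below it. Every pollen array exceeded every array of these organs for CHX15, CHX6B, CHX28 and CHX19. These genes were selected on the same arrays, so the lack of overlap adds no support. Its share over all probe sets was not computed.

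Pollen arrays as a whole also shifted, by an amount that differed between scalings. The median log2 change of all 17646 probe sets, pollen against the 7 organ groups, was -0.33 to -0.74 as deposited, -0.02 to -0.18 after quantile normalization, and 0.10 to 0.41 when each array was divided by its 75th percentile. Relative to that median, CHX15 was 6.05 to 6.74 log2 units higher in pollen, CHX6B 5.08 to 5.96, CHX28 4.40 to 4.88 and CHX19 3.91 to 4.64. After quantile normalization the lowest of these 4 relative changes over the 7 organs were 5.08, 4.05, 4.32 and 3.29. The 4 CHX genes were called higher under each of the settings and with each array left out.

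**Figure D1:**
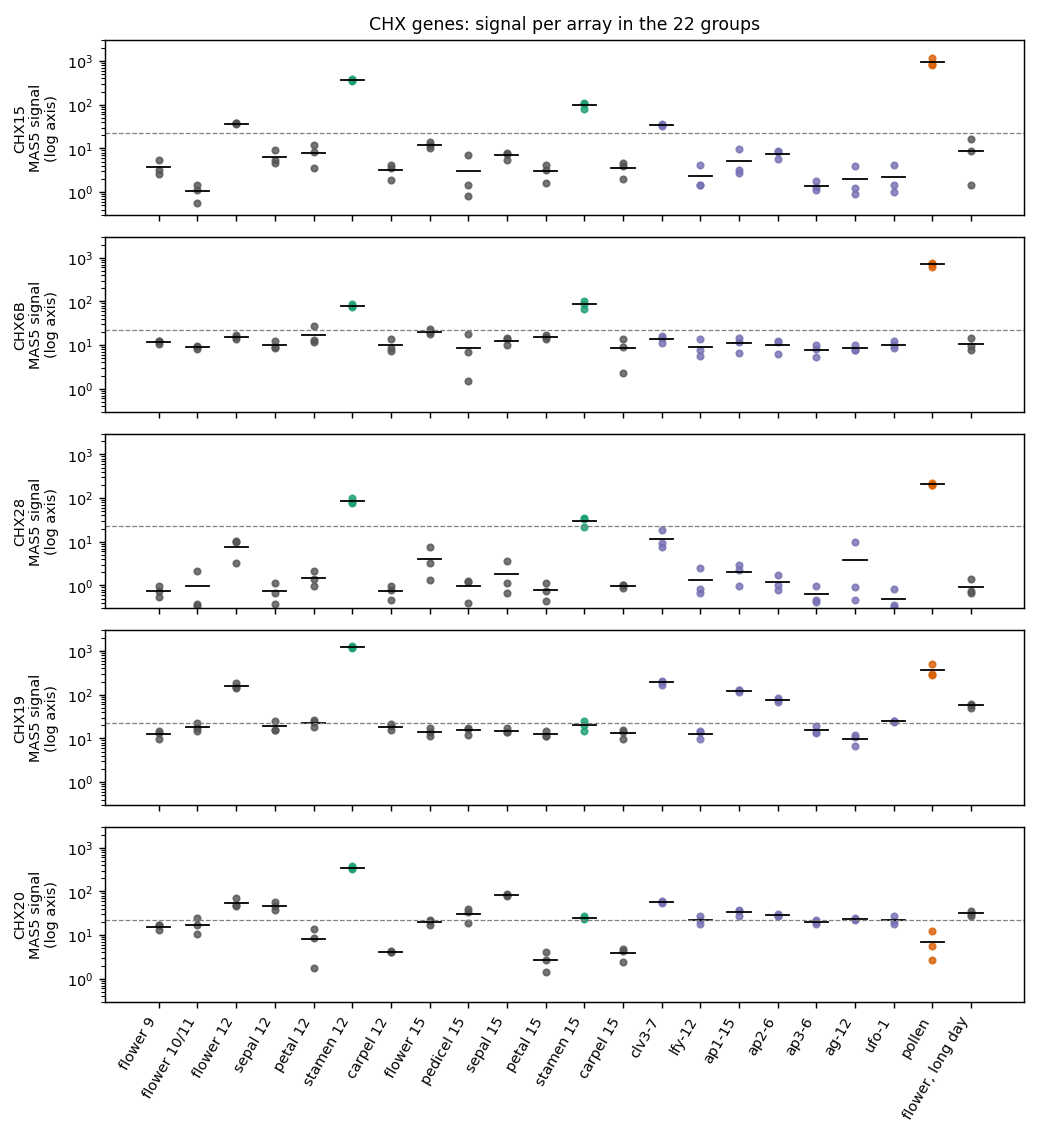
MAS5 signal (log axis) of 5 CHX genes on each of the 66 arrays, by group, with numbers for the flower stage. Points are arrays, short bars are means of 3 arrays, and the dashed line is the floor of 22.6. Pollen is orange, stamens green, mutants purple and all other groups grey. CHX15, CHX6B and CHX28 peak in pollen, and CHX19 and CHX20 in stage 12 stamens.

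The GLR genes differed from each other in pollen, with log2 changes of -2.42 to 1.30 against the 7 organ groups. Just outside the group of pollen genes were GLR3.5 and GLR3.6. GLR3.5, which has been linked to calcium signalling in guard cells, had pollen signals of 47.0, 70.4 and 34.3 against 13.1 to 28.4 for the means of the 7 organ groups, a log2 change of 0.60 to 1.30. GLR3.6, a channel of wound signalling, had 50.9, 56.7 and 46.7 in pollen against organ means of 15.3 to 31.8, a log2 change of 0.55 to 1.24. Relative to the median of all probe sets, GLR3.5 was 1.06 to 1.81 and GLR3.6 1.21 to 1.60 log2 units higher. With quantile normalization or the 75th percentile, both were called higher than each organ, and the count rose from 4 to 7 genes with CHX21 as the third addition.

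GLR3.3 was the 1 gene called lower in pollen than in each of the 7 organ groups, against 20% of all probe sets tested. GLR3.3 carries wound signals between leaves together with GLR3.6. Its pollen signals were 32.0, 7.66 and 20.5, while all 63 other arrays lay between 38.9 and 100.3. All pollen arrays were thus below all others, but 1 of the 3 was above the floor. The share of all probe sets with this separation was not computed. Relative to the median of all probe sets, GLR3.3 was 0.60 to 1.43 log2 units lower in the organ comparisons. Its call against each organ was lost with quantile normalization, the 75th percentile, a pseudocount equal to the floor, or without pollen replicate B.

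GLR1.2, whose product carries calcium currents at the tip of the pollen tube, had 26.1, 42.5 and 25.2 in pollen. It exceeded the floor in all pollen arrays, yet its stage 15 sepals were 6.15-fold higher, at 202, 196 and 179. GLR1.4, a channel gated by several amino acids, had 42.3, 35.2 and 54.6 in pollen, inside the range of its other 63 arrays, 18.8 to 77.6. GLR2.7 was below the floor in pollen, with 2.84 to 5.63, at least 3.27-fold below stage 15 sepals.

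**Figure D2:**
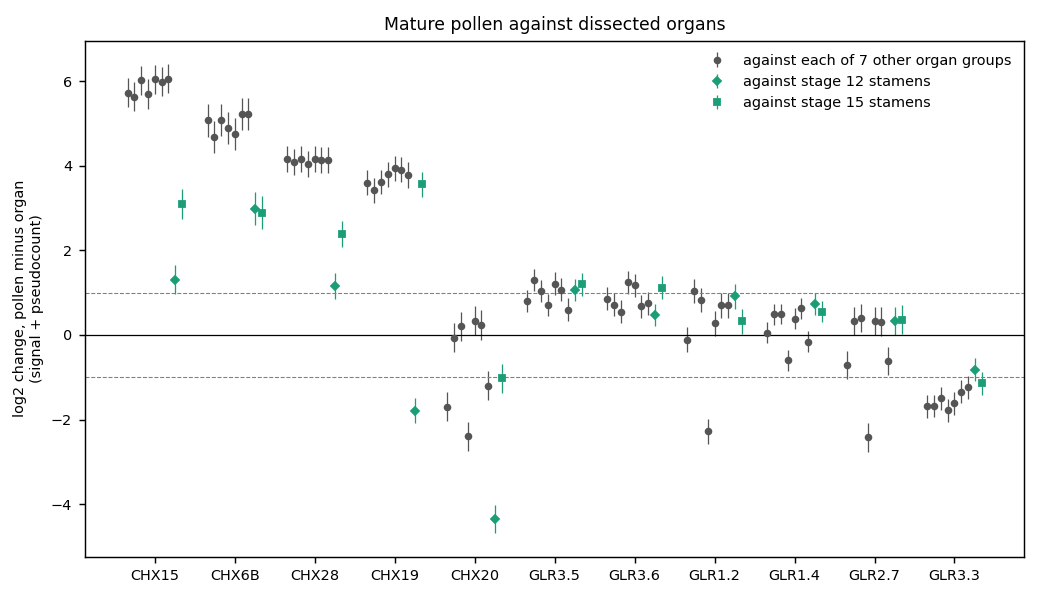
Log2 change of signal plus pseudocount, mature pollen minus organ, for the 11 genes tested, with 95% confidence intervals from the limma fit. Grey circles are the 7 organ groups without stamens, green diamonds stage 12 stamens and green squares stage 15 stamens, and dashed lines mark a 2-fold change. CHX15, CHX6B, CHX28 and CHX19 lie above 3 on the log2 scale against all 7 organ groups, the GLR genes between -2.42 and 1.30.

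Stamens were not used to separate the pollen genes. At stage 12, all 5 CHX genes tested were enriched in stamens, that is, called higher there than in sepals, petals and carpels, against 9.58% of all probe sets. Of the 6 GLR genes, 0 were. CHX19 had 1242, 1329 and 1186 there, which was 65.6-fold above stage 12 sepals, 54.3-fold above petals and at least 55.4-fold above carpels (log2 5.21 to 5.41, SE 0.15, limma adjusted p up to 5.23e-37). CHX15 had 383, 345 and 378 in stage 12 stamens, at least 16.3-fold above each of the other 3 organs. CHX20, known for its role in potassium balance of guard cells, had 339, 383 and 333, which was 7.48-fold above sepals and at least 15.6-fold above petals and carpels. CHX28 had 80.5, 77.7 and 98.9 and CHX6B 87.9, 76.6 and 72.8, each with no overlap with the other organs. The share of all probe sets without such overlap was not computed. CHX28 entered the fit only through stage 12 stamens and pollen, and CHX6B only through stamens of both stages and pollen. Their comparisons with these groups are thus a description, with no test.

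By stage 15, when the flower is open, 3 CHX genes were enriched in stamens (4.89% of all probe sets): CHX15, CHX6B and CHX28. For CHX6B this is again a description. From stage 12 to stage 15, 4 CHX genes fell in stamens and 0 of the 11 genes were called higher (12% of all probe sets in each direction). GLR1.2 and GLR3.3 were higher at an unadjusted p under 0.05 in limma, but not by 2-fold. GLR3.6 was lower at that threshold, with means of 33.8 at stage 12 and 17.8 at stage 15, and was not called. Without a pseudocount GLR1.2 was called higher (log2 1.07, limma adjusted p = 7.36e-04), which gave 1 gene higher and 3 lower. The median log2 change was -1.79 over the 5 CHX genes, 0.07 over the 6 GLR genes and 0.01 over all probe sets. CHX19 fell from 1252 ± 72.1 to 19.9 ± 5.33 (SD, n = 3), a 62.9-fold drop (log2 -5.35, SE 0.15, limma adjusted p = 1.95e-37). Only 1 of 3 stage 15 arrays was above the floor. CHX20 fell 14.1-fold, from 352 ± 27.1 to 24.98 ± 2.38 (log2 -3.32, SE 0.17, limma adjusted p = 4.81e-25). These were the 2 largest falls among the 11 genes tested.

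CHX15 fell 3.72-fold in stamens, from 369 ± 20.8 to 109.6, 106 and 81.9 (log2 -1.79, SE 0.17, limma adjusted p = 8.87e-14). CHX28 fell 2.82-fold, to 33.9, 35.6 and 21.9, with 2 of 3 arrays above the floor (log2 -1.23), again a description. It lost the call without a pseudocount (limma adjusted p = 0.0766). CHX6B did not pass: its stage 15 signals of 104, 87.5 and 66.5 overlapped those of stage 12, with a log2 change of 0.09 and a 95% confidence interval of -0.29 to 0.47. The CHX genes thus divided into a strong fall (CHX19, CHX20), a moderate fall (CHX15, CHX28) and no called change (CHX6B).

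The other organs had little signal that could fall. CHX15 and CHX28 were below the floor in sepals, petals and carpels at both stages, and CHX19 had means of 12.5 to 23.1 there. CHX20 was below the floor in petals and carpels, and in sepals its mean went from 47.0 to 82.3 without reaching a 2-fold change (log2 0.70). The stage 12 to 15 change in stamens minus the mean of that in sepals, petals and carpels was -5.01 for CHX19, -3.40 for CHX20, -1.68 for CHX15 and -1.25 for CHX28 on the log2 scale (SE 0.17 to 0.20). All 4 were called lower in that contrast, against 9.12% of all probe sets, and 0 genes were called higher (10.3%). For CHX15, CHX28 and CHX19 this contrast restates the fall in stamens, and for CHX28 it is again a description. Without a pseudocount CHX15 and CHX28 lost the call (adjusted p = 0.0687 and 0.0927). In whole tissue, fewer cells of a type and less RNA per cell cannot be told apart. Pollen markers had overlapping sums in stamens of both stages (6323 to 6641 and 6267 to 6576), but single markers moved in opposite directions. From stage 12 to 15 the mean signal of AtVEX1 went from 1961 to 34.8, that of MGH3 from 568 to 118 and that of ANX1 from 274 to 161. PLIM2a went from 1551 to 2793, AT59 from 718 to 1657 and ANX2 from 335 to 709. The 4 anther wall and tapetum markers summed to 869 to 898 at stage 12, with 2 of 4 above the floor, and were all below it at stage 15. Their part in the result was not tested.

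Against stage 15 stamens, pollen was higher for 6 of the 11 genes (18.8% of all probe sets) and lower for 2 (30.5%). CHX19 was 18.4-fold higher (log2 3.56, SE 0.15), CHX15 9.48-fold (log2 3.10, SE 0.17), CHX6B 8.19-fold (log2 2.89, SE 0.19) and CHX28 6.73-fold (log2 2.39, SE 0.15), with limma adjusted p up to 1.30e-20. For CHX28 and CHX6B this is again a description. The median change of all probe sets in that comparison was -0.19. GLR3.5 was also called higher, at least 2.24-fold, as was GLR3.6, by 2.90-fold, and CHX20 and GLR3.3 were called lower (log2 -1.03 and -1.14). These last 4 calls were lost with a pseudocount equal to the floor, and those of GLR3.5, CHX20 and GLR3.3 without pollen replicate B (log2 0.98, -0.86 and -0.82). Dividing each array by its 75th percentile gave 9 genes higher and 0 lower.

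Against stage 12 stamens, pollen was higher for 4 genes (14.3% of all probe sets) and lower for 2 (30%). CHX6B was 8.90-fold higher in pollen (log2 2.98, SE 0.19), again a description. CHX15 was 2.55-fold and CHX28 2.39-fold higher, both calls that were lost without a pseudocount (adjusted p = 0.0506 and 0.121), and that of CHX15 with quantile normalization. GLR3.5 was called higher by a log2 change of 1.06, which rested on pollen replicate B (0.83 without it). CHX19 went the other way, 3.42-fold lower in pollen than in stage 12 stamens (log2 -1.79, SE 0.15, limma adjusted p = 1.89e-16), which became -0.95 with the 75th percentile and was then not called. CHX20 was at least 15.6-fold lower (log2 -4.35), since its pollen signals of 12.3, 2.76 and 5.59 were all below the floor. CHX20 was thus the 1 CHX gene tested with a high level in stage 12 stamens and none above the floor in pollen. With quantile normalization the split was 7 higher and 2 lower, and with the 75th percentile 8 higher and 1 lower.

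In whole flowers, CHX19, CHX20 and CHX15 rose to stage 12 and fell by stage 15. From stage 9 to 10/11, 0 genes were called in either direction (2.01% of all probe sets higher, 1.14% lower). At an unadjusted p under 0.05 in limma, CHX19 alone was higher and 0 genes were lower. From stage 10/11 to 12, 3 genes rose (4.9% of all probe sets) and 0 fell (1.37%). CHX19 rose from below the floor to 183, 146 and 149, at least 7.05-fold (log2 2.53, SE 0.15, limma adjusted p = 1.39e-21). CHX15 rose from below the floor to 35.6, 38.0 and 37.7, at least 1.64-fold, and CHX20 rose 3.19-fold to 46.8, 71.7 and 48.2 (log2 1.23, or 0.96 and not called with a pseudocount equal to the floor). The stage 12 flower held 12.7% of the stamen signal of CHX19, 10.1% of that of CHX15 and 15.8% of that of CHX20.

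From stage 12 to 15, the same 3 CHX genes fell in whole flowers (4.69% of all probe sets). CHX19 fell at least 7.05-fold (log2 -2.73, limma adjusted p = 3.09e-23), CHX20 at least 2.46-fold and CHX15 at least 1.64-fold, each to below the floor. The falls of CHX20 and CHX15 had log2 values of -1.10 and -1.05, and both calls were lost with a pseudocount equal to the floor. CHX20 lost its call without stage 12 flower replicate B, and CHX15 without stage 15 flower replicate A. CHX6B and CHX28 were below the floor in flowers of stages 9, 10/11 and 12, and 1 stage 15 array of CHX6B reached 23.6. In the same step 2 GLR genes rose, GLR1.2 and GLR2.7 (7.54% of all probe sets).

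In the floral mutants, of the 3 CHX genes with a measurable signal in stage 12 flowers, CHX15 was called lower in 6 of 7 mutants, CHX19 in 4 and CHX20 in 1. In the same comparisons 0 GLR genes were called. The share of all probe sets called higher was 0.425% in clv3-7, 0.844% in ufo-1, 1.05% in ag-12 and 1.11% in ap3-6. For ap2-6 this share was 1.46%, for ap1-15 2.06% and for lfy-12 2.45%, and 0 of the 11 genes were among them in each mutant. At an unadjusted p under 0.05 in limma, 0 to 2 of the 11 genes were higher per mutant, all of them GLR genes, and 0 genes in either direction in clv3-7. The count of genes called lower was 0 in clv3-7 (0.272% of all probe sets lower), 1 in ap1-15 (3.51%) and 1 in ap2-6 (4.97%). For ufo-1 (4.24%), ag-12 (6.02%) and lfy-12 (7.35%) the count was 2 each, and for ap3-6 (6.21%) it was 3. The 7 comparisons share the stage 12 wild-type arrays.

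CHX15 was below the floor on all arrays of each mutant except clv3-7, that is, at least 1.64-fold below the wild type's 37.1 ± 1.31 (SD, n = 3), with log2 changes of -1.36 to -1.93 and limma adjusted p up to 2.33e-09. In clv3-7 it was 34.6 ± 2.20. On the arrays of ag-12, of ap3-6 and of lfy-12, CHX19 did not exceed the floor, which puts the wild type's 159 ± 20.8 at least 7.05-fold higher. In ufo-1 it was 6.48-fold lower than the wild type, at 24.5, 25.6 and 23.6. The limma adjusted p for these 4 was up to 3.53e-19. CHX19 stayed measurable in the other mutants. Its signals were 126, 115 and 132 in ap1-15, where the log2 change of -0.33 did not pass (adjusted p = 0.0622). In ap2-6 they were 76.4, 83.9 and 67.2, with a log2 change of -0.97 (limma adjusted p = 2.71e-07), just under 2-fold on that scale.

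CHX15 was below the floor in ap1-15 and ap2-6 while CHX19 was not, so mutants were also compared with each other, a contrast chosen after the values were seen. Against ap3-6, CHX19 was higher in ap1-15 by a log2 change of 2.34 (at least 5.48-fold, limma adjusted p = 3.89e-20) and in ap2-6 by 1.70 (at least 3.35-fold, limma adjusted p = 1.72e-14). It was the 1 gene of 11 called higher in each (4.64% and 2.98% of all probe sets). In clv3-7 against ap3-6, CHX19, CHX15 and CHX20 were called higher (6.79%). CHX20 was called lower than in the wild type in ap3-6 alone (2.73-fold, log2 -1.06). In lfy-12, ag-12 and ufo-1 its log2 changes were -0.98, -0.94 and -0.99, so these 4 mutants straddle the 2-fold line. The ap3-6 call was lost without wild-type replicate B, the array with the highest value, 71.7 (log2 -0.90), with quantile normalization (-0.95) and with a pseudocount equal to the floor (-0.85).

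The pollen markers were lower in the mutants where these genes were called lower, and the anther markers were not in all of them. The pollen markers summed to 955 to 1047 in wild-type stage 12 flowers and 1242 to 1265 in clv3-7. The sum was 455 to 490.3 in ap1-15, 317 to 336 in ap2-6 and 175 to 188 in ufo-1. It was 112 to 134 in ap3-6, ag-12 and lfy-12, where 6 of 9 probe sets were below the floor. The anther wall and tapetum markers were all below the floor in ap3-6 and ag-12, and summed to 321 to 369 in lfy-12, 861 to 889 in ufo-1, 1746 to 1787 in ap2-6 and 3489 to 3730 in ap1-15, against 975 to 1028 in the wild type and 1743 to 1960 in clv3-7. In ap1-15 and ap2-6, where CHX15 was called lower, they were thus above the stage 12 wild type. In wild-type flowers this sum also changed with stage: 2818 to 3245 at stage 9 and 3923 to 4146 at stage 10/11. At stage 15 all 4 markers were below the floor. CHX15 was below the floor in flowers of stages 9 and 10/11. The part of these markers and of flower stage in the result was not tested.

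**Figure D3:**
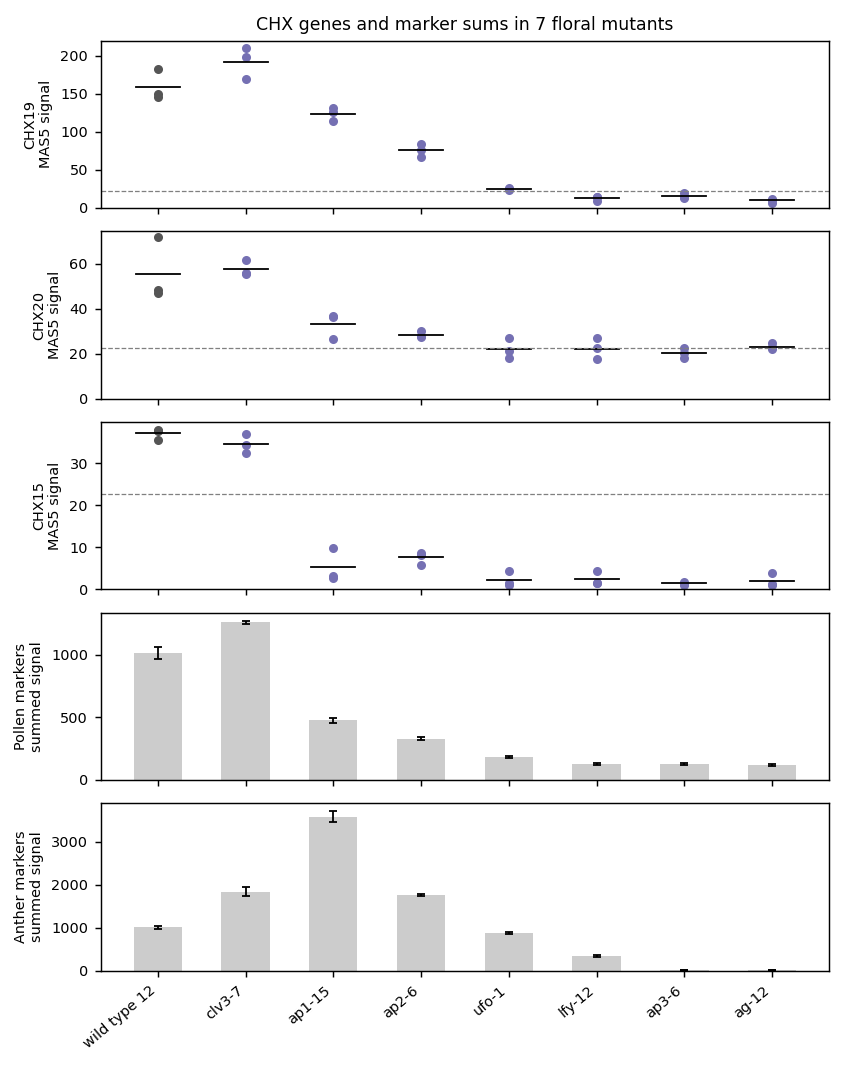
MAS5 signal of CHX19, CHX20 and CHX15 in stage 12 wild-type flowers and 7 mutants, with points for arrays, short bars for means of 3 arrays and a dashed line at the floor of 22.6. The lower panels show the summed signal of 9 pollen and 4 anther wall and tapetum probe sets as the mean with SD of 3 arrays. CHX15 is above the floor in the wild type and clv3-7, and CHX19 in ap1-15, ap2-6 and ufo-1 as well.

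The highest means of GLR1.2, GLR1.4, GLR2.7 and GLR3.3 were in stage 15 sepals. The share of all probe sets with their highest mean there was not computed. For GLR3.3 these arrays (83.4 to 100.3) overlapped those of stage 12 sepals (77.1 to 92.4) and of petals at both stages. At stage 15, GLR1.2, GLR2.7 and CHX20 were enriched in sepals (5.21% of all probe sets). GLR1.2 had 202, 196 and 179 there, 8.23-fold above petals, 8.60-fold above stamens and at least 8.51-fold above carpels (log2 2.56 to 2.98, SE 0.15, limma adjusted p up to 1.03e-22). GLR2.7, a member of a cluster whose genes act in immune calcium signalling, had 70.2, 81.6 and 70.3. No other group of GLR2.7 was above the floor, which makes stage 15 sepals at least 3.27-fold higher than petals, stamens and carpels (log2 2.74 to 2.79). GLR2.7 entered the fit only through stage 15 sepals, so its comparisons with that group are a description, with no test. CHX20 had 82.3, 86.6 and 77.8 in stage 15 sepals, 3.29-fold above stamens and at least 3.64-fold above petals and carpels. It was thus the 1 CHX gene with a sepal level above the floor on all arrays at both stages.

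From stage 12 to 15, GLR1.2 rose 5.63-fold in sepals, from 34.2 ± 1.75 to 192 ± 12.0 (SD, n = 3; log2 2.16, SE 0.15, limma adjusted p = 1.75e-19). GLR2.7 went from below the floor to at least 3.27-fold higher (log2 1.72), again a description. They were the 2 genes called higher in that step (6.94% of all probe sets), and 0 were called lower (9.91%). In whole flowers GLR1.2 rose from below the floor to 48.1, 46.9 and 47.4 (log2 1.38, limma adjusted p = 4.85e-12). GLR2.7 was called in whole flowers too (log2 1.09), but both stages were below the floor, so no fold is given. That call was lost with a pseudocount equal to the floor (0.71), with quantile normalization (0.98) and without stage 12 flower replicate A (0.95).

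At stage 12, GLR2.7 was the 1 gene enriched in sepals (6.79% of all probe sets), at values of 11.3 to 17.6 that were all below the floor. It was lost with a pseudocount equal to the floor, when only the 4 organs' arrays were fitted, and without stage 12 sepal replicate B. GLR1.4 had its highest mean in stage 15 sepals (77.6, 73.3 and 64.7), followed by stage 15 pedicels (62.3, 42.1 and 46.8), whose arrays did not overlap, and then by pollen and stage 12 sepals. It was not called above stage 15 petals (31.1 ± 5.83, SD, n = 3), where the log2 difference was 0.98. In petals and carpels, 0 genes were enriched at stage 12 (1.67% and 5.07% of all probe sets) and 0 at stage 15 (1.29% and 14.5%). In pedicels 0 were enriched (2.5%). At an unadjusted p under 0.05 in limma, GLR3.6 was higher in stage 15 carpels than in the other 3 organs, and 0 genes met this for petals, pedicels or stage 12 carpels.

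GLR3.3 and GLR3.6 were above the floor in most groups. GLR3.3 was above the floor on all arrays of 21 groups, from 41.0 ± 3.36 in stage 12 stamens to 91.1 ± 8.60 in stage 15 sepals, and its means in the 7 mutants lay between 73.0 and 82.7, next to 79.0 in the wild type. GLR3.6 was above the floor on all arrays of 16 groups, with organ means from 15.3 in stage 15 sepals to 33.8 in stage 12 stamens. Its means fell from 36.3 to 24.0 between stage 12 and 15 flowers, a log2 change of -0.43 that did not reach 2-fold. Both stage 15 sepals and petals were below the floor for GLR3.6. GLR3.5 was above the floor on all arrays only of pollen and stage 15 pedicels (28.4 ± 2.39).

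**Figure D4:**
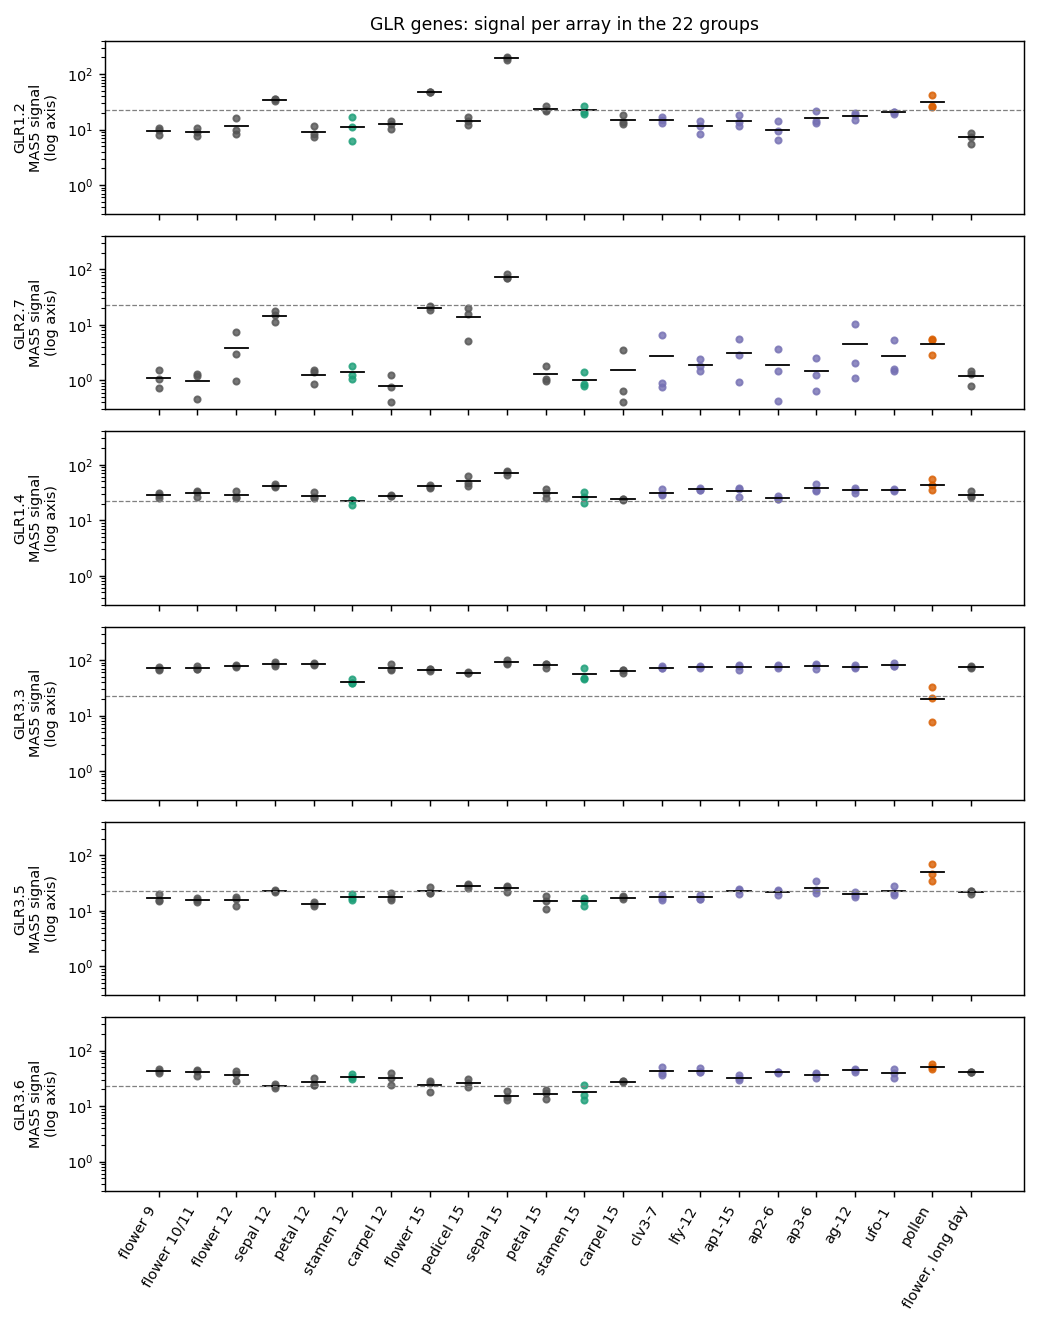
MAS5 signal (log axis) of 6 GLR genes on each of the 66 arrays, by group, with the same symbols as for the CHX genes: points are arrays, short bars are means of 3 arrays, orange is pollen, green stamens, purple mutants, and the dashed line is the floor of 22.6. GLR1.2 and GLR2.7 peak in stage 15 sepals, and GLR3.3 is above the floor everywhere except on 2 pollen arrays.

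The 4 genes outside the test were dim on nearly all arrays. CHX21, which acts with a close relative in guiding the pollen tube, had 17.6 to 20.2 in pollen, below the floor, while its other 63 arrays did not exceed 7.10. Without the filter on dim probe sets, CHX21 was called higher in pollen than in each organ, at values that the floor does not separate from background. GLR2.8 had 11.7 to 26.7 in pollen and at most 23.7 elsewhere, with 2 arrays above the floor in all. CHX16 did not exceed 6.91 and GLR2.9 did not exceed 4.44 on any array. A probe set shared by GLR2.2 and GLR2.3 was not counted, and its highest signal was 1.13.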

How the data were processed

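RNA of 66 samples was hybridised to ATH1 arrays. The authors deposited intensity values, 1 MAS5 signal per probe set and array on a linear scale, per the submitters' processing notes; the MAS5 version is not given in the sources used here. Per the file, each array was scaled to a common trimmed mean. Scanner files were not used here. The number of arrays, 3 per group, limits the precision. Gene names came from the platform annotation, which can be old, with locus names from RefSeq (TAIR10.1): 13513 probe sets paired with 1 gene, 503 with several and 8730 with none.

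The 64 control probe sets and 5100 dim ones (no group with all arrays above the floor of 22.6, the 40th percentile) were left out. limma 3.58.1 in R 4.3.3 was fitted to log2(signal + 11.3), with a pseudocount of 0.5 of the floor, 1 mean per group over 66 arrays, eBayes with a trend, two-sided, and Benjamini-Hochberg adjustment within each contrast over all 17646 probe sets. Fold values are ratios of mean signals; where 1 group is below the floor, the other mean is divided by the floor and written as at least. The same fit was tested on simulated data. Every gene found by name was accounted for, with full values for pollen genes, organ-enriched genes and genes called between stages or mutants. The genes and lists were chosen with earlier results of these data known. Lists of other potassium, calcium and proton transport genes and of calcium-dependent protein kinases matched 0 named probe sets. Of the marker lists, 9 probe sets were found for pollen, 2 for green tissue, 4 for anther wall and tapetum and 6 for carpel, ovule and seed coat; the last summed to 3575 to 4715 in carpels and to at most 301 in pollen. Promoter and protein sequences were not analysed here. Alternatives were the pseudocount, the filter, 2 scalings, robust eBayes, the replicate block, the groups fitted and leaving out each array.

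Replicate letters are shared between groups. Same-letter arrays did not deviate together: the correlations of deviations from group means were -0.14 to 0.12 over 50 comparisons, and in 0 of these were all over 0.1.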

Additional observations from a re-analysis of the deposited data

Results flagged for a closer look

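The change of 4 CHX genes from stage 12 to stage 15 differed between stamens and the mean of sepals, petals and carpels in the limma contrast of the difference itself. The log2 difference was -5.01 for CHX19, -3.40 for CHX20, -1.68 for CHX15 and -1.25 for CHX28. CHX15 and CHX28 were below the floor in these 3 organs at both stages, and CHX19 was at 12.5 to 23.1, so for them the difference restates the fall in stamens. CHX28 entered the fit only through stage 12 stamens and pollen, so its difference is a description. CHX20 was below the floor in petals and carpels and went from 47.0 to 82.3 in sepals. Without a pseudocount the calls of CHX15 and CHX28 were lost (adjusted p = 0.0687 and 0.0927).

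Flowers from long days at 20 °C entered no comparison, since light and temperature differ together from the other groups and the labels give no stage. In these flowers 5 genes were above the floor on all 3 arrays. Their mean signals were 57.35 for CHX19, 31.44 for CHX20, 28.93 for GLR1.4, 74.63 for GLR3.3 and 40.62 for GLR3.6. CHX15, CHX6B and CHX28 were below the floor there. The anther wall and tapetum markers summed to 3396 to 3618 and the pollen markers to 258 to 288 in the same flowers, and their part was not tested.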

How the results depend on the processing

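No called gene was called in the opposite direction under another setting. The median change of all probe sets, pollen against the 7 organ groups, did change sign. It was -0.33 to -0.74 as deposited and 0.10 to 0.41 with the 75th percentile. Robust eBayes and the fit without a filter left all 25 counts of genes within 1.5 times, and the replicate block did so for 24 of 24 (4 genes higher and 1 lower in pollen than in each organ, as in the report); for stage 10/11 to 12 the groups share no letters. Both scalings moved the count higher in pollen from 4 to 7. The count lower in pollen went from 1 to 0 with both scalings and with a pseudocount equal to the floor. That pseudocount gave 4 genes for pollen against stage 15 stamens (8 as reported), 2 for flowers from stage 12 to 15 (5 as reported), 0 for ap2-6 and 0 for stage 12 sepals (1 each as reported). Quantile normalization gave 3 genes for flowers from stage 12 to 15 and 2 for ap2-6. No pseudocount gave 1 for stage 9 to 10/11 (0 as reported), 4 each for lfy-12, ag-12 and ufo-1 (2 each as reported), 2 for ap1-15 (1 as reported), 3 for ap2-6 and 2 for the stamen difference from stage 12 to 15 (4 as reported). For stage 12 sepals both scalings and no pseudocount gave 2, and the arrays of the 4 organs alone gave 0. Leaving out 1 array gave 0 to 1 gene lower in pollen, 5 to 8 for pollen against stage 15 stamens, 1 to 2 for ap2-6 and 0 to 1 for stage 12 sepals. The 0 rested on pollen replicate B and on stage 12 sepal replicate B, the 5 on pollen replicate B, and the 2 for ap2-6 appeared without wild-type replicate B or C or ap2-6 replicate B. The cause was not tested. Signals near the floor, which include most GLR values, limit these calls.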
